A study of Homo sapiens with 32 samples.

Results

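MAL, MAL2 and MALL encode the MAL proteolipids, small membrane proteins with 4 membrane-spanning segments that sit in lipid-rich membrane domains, and POU2F2 encodes OCT2, an octamer-binding transcription factor. These 4 genes, of 20037 protein-coding genes in the annotation, were followed through lists of N6-methyladenosine (m6A) peaks from kidney cell lines with and without the histone methyltransferase SETD2. MAL2, MAL and POU2F2 were chosen from these same lists: MAL2 because it had more peaks in SETD2KO libraries of 786-O, MAL because it had fewer in SETD2KO libraries of RPTEC, and POU2F2 because it had more there. MALL was added as the close relative of MAL. Their gene bodies overlapped 93 of the 474004 deposited peaks, 25 in 786-O and 68 in RPTEC. The peaks formed 8 of 78921 regions in 786-O and 24 of 68428 in RPTEC, where a region is a run of overlapping peaks from the 8 libraries of a cell line.

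The series measured m6A by MeRIP-seq, in which RNA fragments are pulled down with an antibody to the modified base and sequenced beside an Input of the same RNA. 786-O is a clear cell renal cell carcinoma (ccRCC) line, and RPTEC is an hTERT-immortalized line from human renal proximal tubule epithelium used as a surrogate for normal cells. Each was studied as WT, as the CRISPR knockout clones SETD2KO-1 and SETD2KO-2, and as SETD2KO-1R, a clone of SETD2KO-1 that carries a tagged full-length SETD2 transgene. Each of these lines had 2 IP libraries, 16 in all, and none received a treatment. The 4 SETD2KO libraries of a cell line were compared with the 4 SETD2-expressing ones, WT and SETD2KO-1R together. Each engineered line is 1 clone, and nothing says that replicates were separate cultures, so p-values measure only the spread between these libraries. The 16 Input samples were not analysed here, so a change in peak calls and a change in the amount of RNA cannot be told apart.

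MAL is known for carrying proteins to the apical surface of polarized epithelial cells and for its place in myelin and T cells. MAL2 serves transcytosis, the indirect route that takes proteins from the basolateral to the apical side, while MALL (BENE) is found with caveolin in cholesterol-rich membranes. POU2F2 is best known from B lymphocytes. m6A is placed on RNA as it is transcribed, most densely near stop codons, and SETD2 deposits H3K36me3, a histone mark that can recruit the m6A methyltransferase complex.

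The peak lists held 19249 to 39670 peaks each, and their read depth is unknown. The SETD2 gene itself had 4 to 10 peaks in the SETD2KO libraries of 786-O and 7 to 10 in the SETD2-expressing ones. In RPTEC it had 4 to 6 and 7 to 11. An edit that stops the protein need not remove the RNA, so these peaks do not check the knockout. The markers of the labelled cell types were present in part. Of 10 proximal tubule genes, 2 to 4 had a peak in each group and 2 had one in every library of the group, while LRP2, AQP1, SLC34A1, SLC22A6 and HNF4A had none in any library. Of 5 ccRCC genes, 3 or 4 had a peak in each group of either cell line, and CA9 had none. Of 8 kidney epithelial genes, 7 or 8 had a peak in each group. Of 10 lymphoid markers, none had a peak in RPTEC, and CD22 alone had 1 in some 786-O libraries of either side. Of 7 distal nephron markers, GATA3 alone had a peak, 1 in a SETD2KO library of RPTEC.

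MAL (gene ID 4118, GRCh38 chr2:95025708-95053992, plus strand, 28285 bp) had no peak in any of the 8 libraries of 786-O. In RPTEC it had 6 and 5 peaks in WT, 2 and 1 in SETD2KO-1, 0 and 0 in SETD2KO-2, and 5 and 3 in SETD2KO-1R. All 4 SETD2-expressing libraries were above all 4 SETD2KO libraries, and SETD2KO-2 had lost every call. The mean was 0.75 ± 0.957 peaks (SD, n = 4) in SETD2KO and 4.75 ± 1.26 (SD, n = 4) in SETD2-expressing libraries. This contrast chose the gene, so it is given with no test. Of the 12185 genes with a peak in RPTEC, 1.41% had all 4 SETD2KO libraries below all 4 SETD2-expressing ones and 1.01% had them above.

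**Figure D1:**
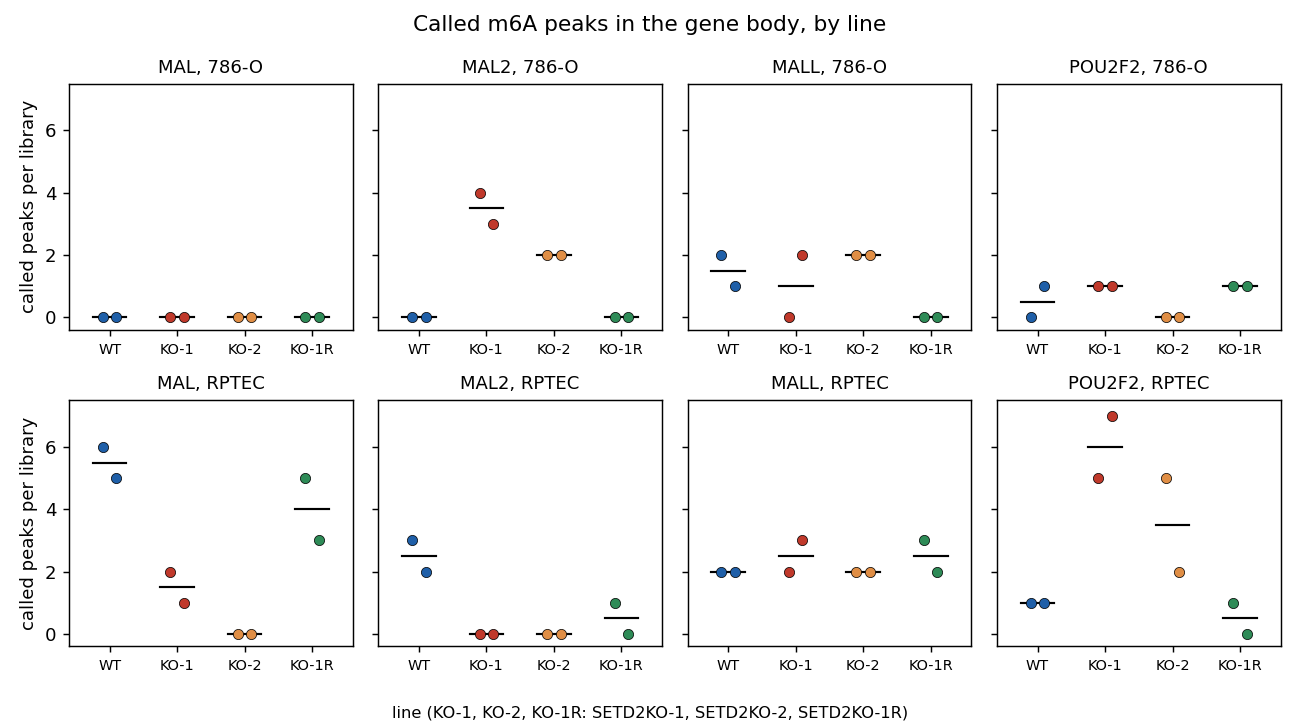
Called peaks per library (vertical axis) in the gene bodies of MAL, MAL2, MALL and POU2F2, by line, in 786-O (upper row) and RPTEC (lower row). Each point is 1 library and each bar the mean of the 2 libraries of a line. MAL2 had 2 to 4 peaks in the SETD2KO libraries of 786-O and 0 in the others, MAL was highest in WT and SETD2KO-1R of RPTEC, and MALL had 2 or 3 peaks in every RPTEC library.

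Bases covered by peaks also set the SETD2KO libraries apart in this contrast, though here SETD2KO-1R was highest. In RPTEC, MAL had 4190 ± 561 bp (SD, n = 2) covered in WT and 4378 ± 378 bp (SD, n = 2) in SETD2KO-1R, against 940 ± 781 bp (SD, n = 2) in SETD2KO-1 and 0 in SETD2KO-2. The mean of the rescued clone was above that of WT by less than the SD of either line.

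The 22 MAL peaks of RPTEC fell in 8 regions, of which 7 were called in SETD2-expressing libraries alone, as were 28.4% of all RPTEC regions. Of the 8, 4 were called in 1 library and are one-sided by construction, and the contrast chose the gene, so nothing is read from the count. The widest, chr2:95036231-95039726, was the only one called on both sides, by the 4 SETD2-expressing libraries and the pair of SETD2KO-1. In WT it was split into a longer peak of 2182 or 2115 bp and a shorter one of 901 or 669 bp. In SETD2KO-1R it was a single peak of 3232 or 3139 bp, and in SETD2KO-1 it shrank to peaks of 632, 860 and 388 bp. Region chr2:95046195-95046896 appeared in every SETD2-expressing library (4 of 4) but in none of the SETD2KO libraries, a pattern that 0.212% of all RPTEC regions had. Its summits, the highest point of each peak, lay within 29 bp of each other, and its score percentiles ran from 71.1 in SETD2KO-1R replicate 2 to 95.6 in WT replicate 2. The score percentile is the rank of a peak within its own list, with 100 the strongest. This region also overlaps the uncharacterized gene LOC124906047. Without SETD2KO-1R replicate 2, the number of RPTEC regions of the 4 genes called throughout one side and nowhere on the other went from 2 to 4.

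The score percentiles belong to the contrast that chose the gene and come from lists of different length, so they are given as a description. The 19 peaks of SETD2-expressing libraries had a median percentile of 77.7, and the 3 peaks of SETD2KO-1 a median of 22.2. The lowest percentile of all, 9.19, was in SETD2KO-1R replicate 2.

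**Figure D2:**
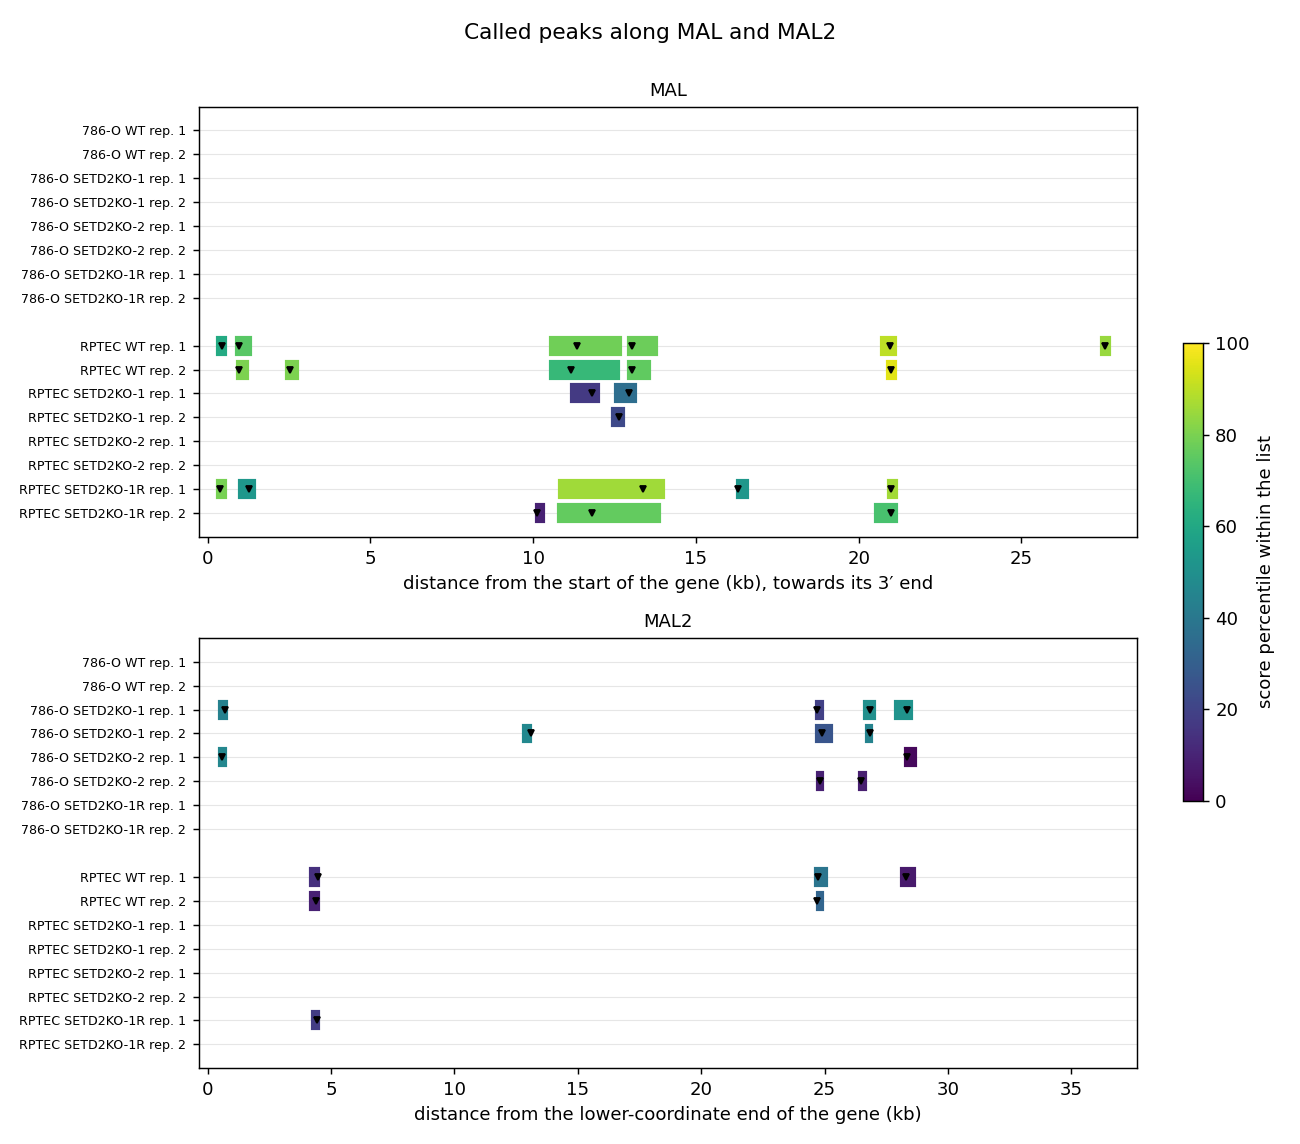
Peaks along MAL (upper panel, from its start towards its 3′ end) and MAL2 (lower panel, from its lower-coordinate end), 1 row per library, with distance in kb. Bars are peaks coloured by score percentile within the library's list, and triangles are summits. MAL peaks gathered in 1 wide region of RPTEC and a narrow one called in all 4 SETD2-expressing libraries, while MAL2 peaks lay in SETD2KO libraries of 786-O and in WT and SETD2KO-1R of RPTEC.

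A pair of MAL regions, chr2:95025983-95026274 and chr2:95026562-95027151, lie close to the start of the gene and overlap MAL-AS1, an antisense RNA. The lists carry no strand, so peaks of MAL and of MAL-AS1 cannot be told apart there. The first was called in WT replicate 1 and SETD2KO-1R replicate 1, and the second in both WT libraries and SETD2KO-1R replicate 1. The second region reaches 172 bases into the promoter window of MAL-AS1, at chr2:95026980-95027151. That stretch is printed as the part of a MAL region whose bases could be read here (RefSeq, GRCh38.p14, plus strand, which is the MAL strand), with GGAC, the core of a common m6A motif, in capitals.
MAL region within the MAL-AS1 window: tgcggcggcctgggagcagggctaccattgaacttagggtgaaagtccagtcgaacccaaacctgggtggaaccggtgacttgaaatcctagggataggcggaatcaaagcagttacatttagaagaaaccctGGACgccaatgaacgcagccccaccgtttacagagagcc
GGAC occurs 1 time on each strand of this stretch. The copy in capitals lay under the peak of SETD2KO-1R replicate 1 alone. The peaks of WT replicates 1 and 2 ended before it, at chr2:95027050 and chr2:95026941. Of 35116 promoter windows cut to the same 172 bases, 48.2% hold GGAC on the transcribed strand and 71.9% on either strand, so its presence here is ordinary. The promoter window of MAL itself ends 226 bp before the nearest region.

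MAL2 (gene ID 114569, GRCh38 chr8:119208363-119245673, 37311 bp) had peaks in opposite sets of libraries in the 2 cell lines. In 786-O it had 4 and 3 peaks in SETD2KO-1 and 2 and 2 in SETD2KO-2, and 0 in each of the 4 WT and SETD2KO-1R libraries. In RPTEC it had 3 and 2 peaks in WT, 1 and 0 in SETD2KO-1R, and 0 in each of the 4 SETD2KO libraries. The 786-O groups did not overlap, whereas in RPTEC SETD2KO-1R replicate 2 was at 0 with the knockouts. In 786-O, 1.52% of the 12430 genes with a peak had all 4 SETD2KO libraries above the others and 0.901% had them below. That contrast chose the gene and is not tested: means were 2.75 ± 0.957 peaks (SD, n = 4) and 0. In RPTEC the difference, SETD2KO minus SETD2-expressing, was -1.5 peaks (exact two-sided permutation p = 0.143; adjusted p = 1 over all genes with a peak). Without SETD2KO-1R replicate 2 it was -2 and the groups no longer overlapped (exact two-sided permutation p = 0.0286; adjusted p = 1). That library was the SETD2-expressing one at 0, so leaving it out sets the groups apart by construction. Leaving out any other RPTEC library gave an exact two-sided permutation p of 0.143. With 4 libraries against 4, the smallest p this test can give is 0.0286, and no gene of either cell line passed the adjustment (301 genes in 786-O and 295 in RPTEC had an unadjusted p below 0.05). Since 1 of the contrasts chose the gene, the opposite directions of the cell lines were not tested.

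MAL2 peaks formed 5 regions in 786-O, each called in SETD2KO libraries alone, as were 26.3% of all 786-O regions, but none was called in all 4 of them. Another 23.9% of 786-O regions were called in SETD2-expressing libraries alone. Regions chr8:119233022-119233655 and chr8:119234751-119235406 were each found in 3 libraries, the pair from SETD2KO-1 and the second replicate of SETD2KO-2. Regions chr8:119208808-119209125 and chr8:119236235-119237064 were called in SETD2KO-1 replicate 1 and SETD2KO-2 replicate 1. So the 2 libraries of SETD2KO-2 shared no MAL2 region, although each had 2 peaks. Over all 786-O regions, 0.475% were called in all 4 SETD2KO libraries and nowhere else, and 0.147% in all 4 SETD2-expressing libraries and nowhere else. Without SETD2KO-2 replicate 1, 2 regions of the 4 genes met that description in 786-O in place of 0. These peaks had score percentiles of 2.28 to 51.5 and a median of 43.7. When only the upper 50% of each list was kept, the SETD2KO mean for MAL2 in 786-O exceeded the other by 0.25 peaks in place of 2.75.

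In RPTEC, MAL2 had 3 regions. Their 6 peaks had score percentiles of 6.80 to 39.0 and a median of 15.7. When only the upper 50% of each list was kept, the MAL2 difference in RPTEC went from -1.5 to 0 peaks. With every list cut to its 19249 highest peaks it was -0.5. Region chr8:119212519-119212889 was called in both WT libraries and SETD2KO-1R replicate 1, at percentiles of 9.21 to 17.7. Region chr8:119232996-119233447 was called in both WT libraries and chr8:119236447-119237026 in WT replicate 1. The latter pair overlapped 786-O regions, with median summits 111 and 7.5 bp apart, so overlapping positions were called in knockout cells of one cell line and in WT cells of the other. Of the 5 regions in 786-O 4, and of the 3 in RPTEC 2, overlap MAL2-AS1, and without strand the peaks of the gene pair cannot be told apart.

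MAL2 lies on chromosome 8, where the SETD2KO libraries of 786-O had more of their peaks. Chromosome 8 held 4.23% to 4.47% of all peaks in these 4 libraries and 3.46% to 3.75% in the SETD2-expressing ones. Of 434 genes with a peak on it, 15 (3.46%) had all 4 SETD2KO libraries above the others and 0 had them below. Over all 786-O genes with a peak, the shares were 1.52% and 0.901%. Among the 3 protein-coding genes on either side of MAL2, CCN3, a secreted matricellular protein, had 1 peak in every SETD2KO library of 786-O and 0 in the others. TAF2, a subunit of TFIID, had 4 or 5 and 2 to 4. In RPTEC the chromosome 8 share was also higher in SETD2KO, at 3.76% to 3.99% against 3.35% to 3.69%, while MAL2 had no peak there in SETD2KO libraries. Of 436 RPTEC genes on chromosome 8 with a peak, 5 (1.15%) had all 4 SETD2KO libraries above the others and 6 (1.38%) below. These are near the 1.01% and 1.41% of all RPTEC genes with a peak. Near MAL2 in RPTEC, SAMD12 had 0 or 1 peaks in SETD2KO and 2 to 5 in SETD2-expressing libraries, and TNFRSF11B (osteoprotegerin) had 1 or 2 against 0. In RPTEC, chromosome 2, which holds MAL, had 6.96% to 6.99% of the peaks in SETD2KO and 6.44% to 6.77% in SETD2-expressing libraries. Chromosome 19, which holds POU2F2, had 5.61% to 6.69% in SETD2KO and 7.09% to 7.56% in SETD2-expressing libraries. The part of these chromosome shares in the values of the genes was not tested.

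**Figure D3:**
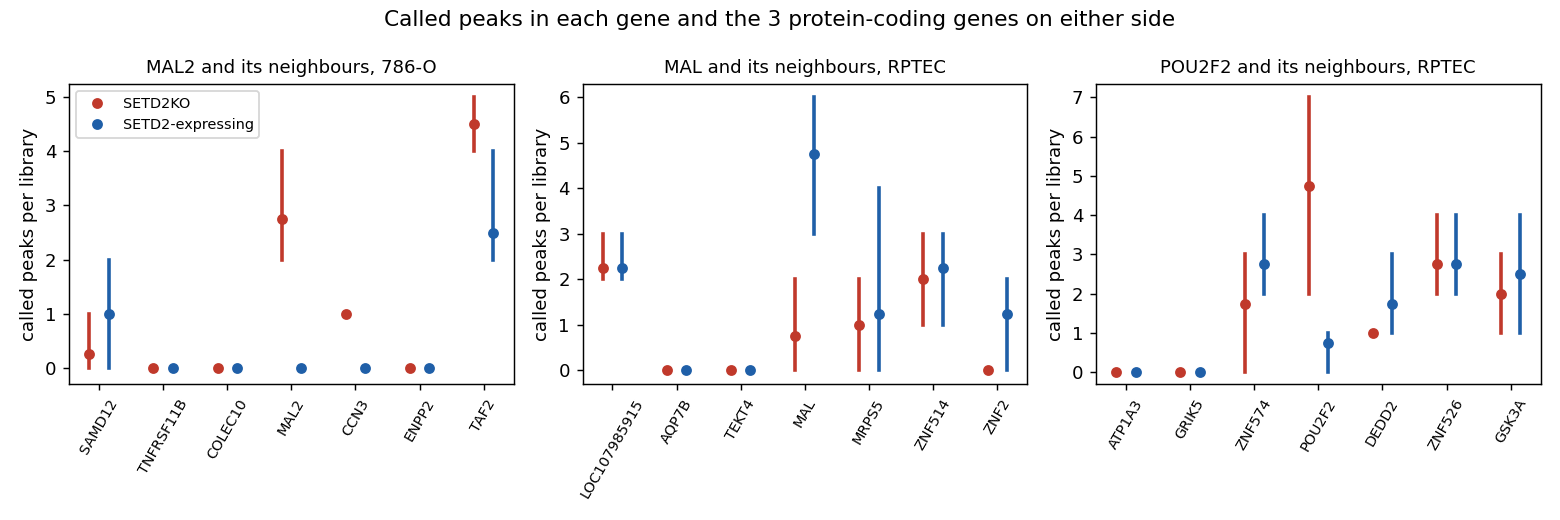
Called peaks per library in MAL2 in 786-O, MAL in RPTEC and POU2F2 in RPTEC, each with the 3 protein-coding genes on either side in chromosome order. Points are means of 4 libraries and lines run from the lowest to the highest library, in red for SETD2KO and blue for SETD2-expressing. Beside MAL2, CCN3 also had its groups apart (1 against 0), whereas no neighbour of MAL or POU2F2 did.

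MALL (gene ID 7851, GRCh38 chr2:110083870-110118139, minus strand, 34270 bp) showed no such split. In RPTEC it had 2 and 2 peaks in WT, 2 and 3 in SETD2KO-1, 2 and 2 in SETD2KO-2, and 3 and 2 in SETD2KO-1R. Both groups had a mean of 2.25 ± 0.5 peaks (SD, n = 4), so the difference was 0 (exact two-sided permutation p = 1; adjusted p = 1). In 786-O it had 2 and 1 peaks in WT, 0 and 2 in SETD2KO-1, 2 and 2 in SETD2KO-2, and 0 and 0 in SETD2KO-1R. Here the groups overlapped, with the rescued clone at 0 and SETD2KO-1 replicate 1 with it. The difference was 0.75 peaks (exact two-sided permutation p = 0.486; adjusted p = 1). It was 1.25 without SETD2KO-1 replicate 1, 1.17 without WT replicate 1, 0.5 without either SETD2KO-1R library and 0 against WT alone. The difference between the cell lines' differences was also 0.75 (exact two-sided permutation p = 0.522).

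Where MALL had peaks, most lay at a pair of places near its 3′ end. In RPTEC, regions chr2:110084138-110084985 and chr2:110085392-110086450 were called in all 8 libraries, as were 8.18% of RPTEC regions. Their midpoints lay 691 and 2050.5 bp from the 3′ end of the gene. The third region, chr2:110101916-110102262, was called in SETD2KO-1R replicate 1 alone, like the 41.6% of RPTEC regions called in 1 library. Both 786-O regions lay at the first 2 places, 808 and 380 bp of them shared with the RPTEC regions. Region chr2:110084119-110084945 was called in 5 libraries of 786-O and chr2:110085499-110085878 in 4. Over all 786-O regions, 9.70% were called in all 8 libraries and 39.4% in 1. Score percentiles of the second RPTEC place were 78.5 and 80.2 in WT, 72.8 and 45.0 in SETD2KO-1, 41.8 and 31.0 in SETD2KO-2, and 53.0 and 69.2 in SETD2KO-1R for the stronger peak of each library. At this second place the lowest WT value was above every SETD2KO value, but SETD2KO-1R replicate 1 was below SETD2KO-1 replicate 1. At the first RPTEC place they were 50.1 and 45.2 in WT, 30.3 and 45.4 in SETD2KO-1, and 51.6 and 21.5 in SETD2KO-2. SETD2KO-1R had 50.7 and 28.2 there, and the WT and SETD2KO values overlapped.

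**Figure D4:**
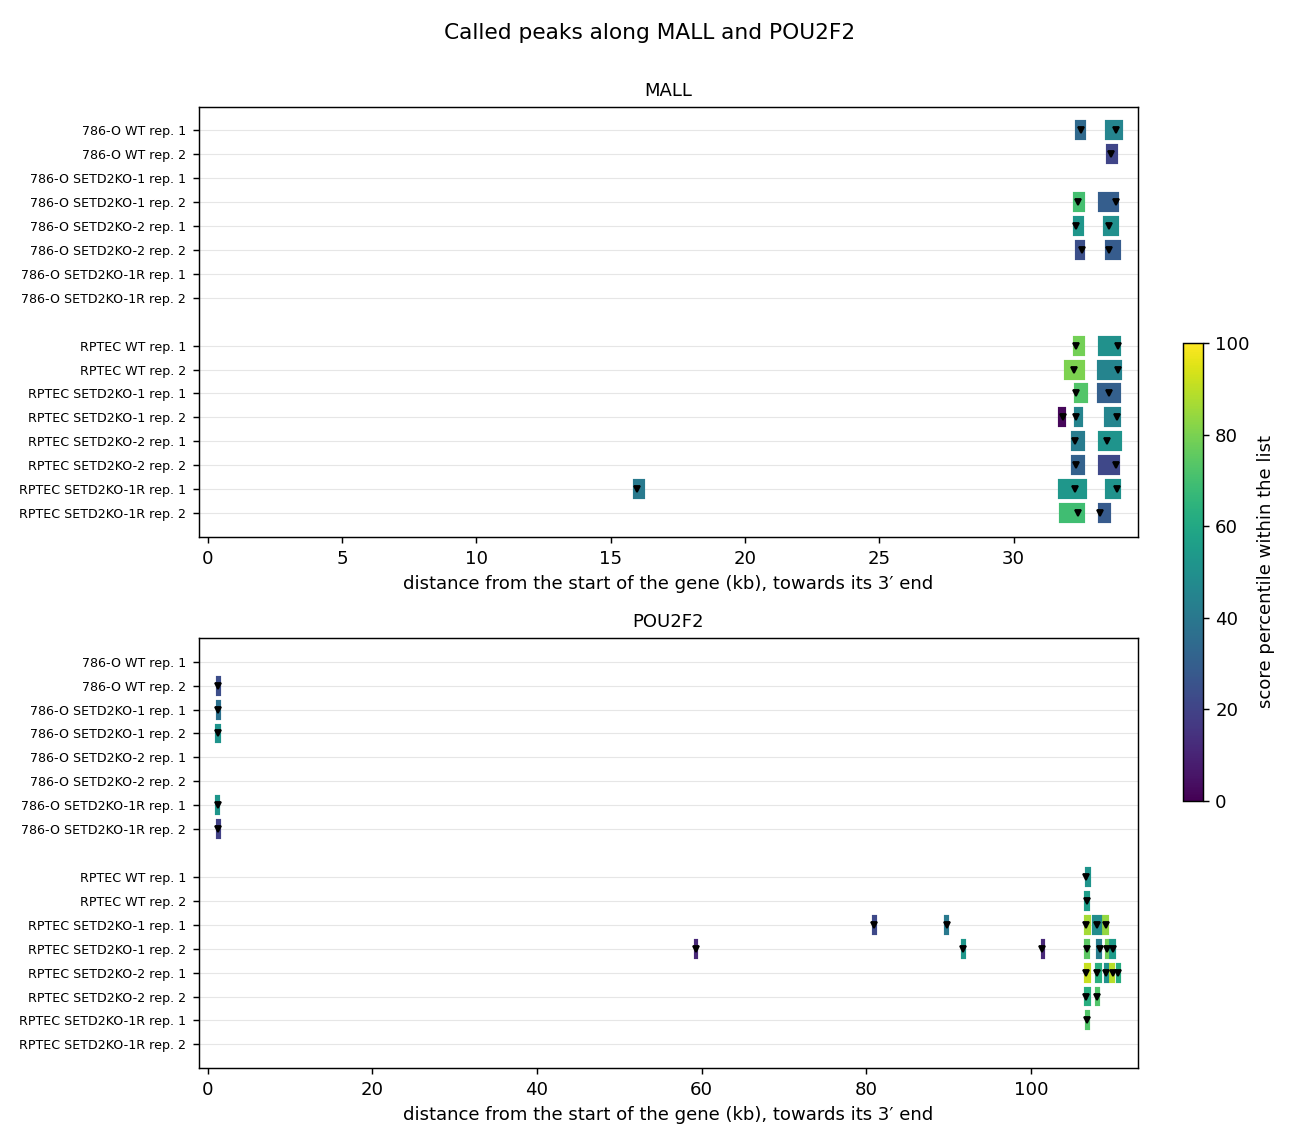
Peaks along MALL (upper panel) and POU2F2 (lower panel) from the start of each gene towards its 3′ end, in kb, 1 row per library. Bars are peaks coloured by score percentile within the library's list, and triangles are summits. MALL peaks lay mostly at a pair of places near its 3′ end in the libraries that had any. POU2F2 was called near the upstream end of its gene body in 786-O and, in RPTEC, in a cluster near its 3′ end.

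The second MALL place of RPTEC reaches 18 bases into MIR4436B1, a microRNA gene inside MALL. That reach rests on 1 peak, the weaker one of SETD2KO-1 replicate 2 there, at percentile 1.81. A peak of SETD2KO-1R replicate 1 also entered the hairpin, ending at chr2:110086442, and no other library had a peak that reached it. The MIR4436B1 hairpin of 91 nt is identical to that of MIR4436B2, which lies in LOC128966597 further along chromosome 2. The sequence around the hairpins was not compared, so the copy a peak here comes from was not tested. The mature microRNAs are shown (RefSeq, GRCh38.p14) with the seed, bases 2 to 8, in capitals, beside that of MIR4436A in the partial copy MALLP2.
hsa-miR-4436b-3p: cAGGGCAGgaagaaguggacaa
hsa-miR-4436b-5p: gUCCACUUcugccugcccugcc
hsa-miR-4436a: gCAGGACAggcagaaguggau
The 3 seeds differ, and 8 bases of the MIR4436B1 copy of hsa-miR-4436b-3p fall inside the region. These 8 bases lay under the peak of SETD2KO-1 replicate 2 alone. No peak overlapped MALLP2, and LOC128966597 had 1 peak, in RPTEC, at percentile 14.4.

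POU2F2 (gene ID 5452, GRCh38 chr19:42086110-42197936, minus strand, 111827 bp) had 1 and 1 peaks in WT of RPTEC, 5 and 7 in SETD2KO-1, 5 and 2 in SETD2KO-2, and 1 and 0 in SETD2KO-1R. The SETD2KO libraries, at 2 to 7, were all above the SETD2-expressing ones, at 0 or 1. Means were 4.75 ± 2.06 and 0.75 ± 0.5 peaks (SD, n = 4 each). This contrast chose the gene and has no test. In 786-O it had 0 and 1 peaks in WT, 1 and 1 in SETD2KO-1, 0 and 0 in SETD2KO-2, and 1 and 1 in SETD2KO-1R. The 786-O groups overlapped, and the difference was -0.25 peaks (exact two-sided permutation p = 1; adjusted p = 1).

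In RPTEC, 9 of the 10 POU2F2 regions were called in SETD2KO libraries alone, as were 23.9% of all RPTEC regions. Of the 10, 6 were called in 1 library and are one-sided by construction, and the contrast chose the gene, so nothing is read from the count. One of them, chr19:42089393-42090406, was called in all 4 SETD2KO libraries and no other, as were 0.263% of RPTEC regions. Its percentiles were 48.5 and 42.0 in SETD2KO-1 and 63.1 and 72.6 in SETD2KO-2. The tenth region, chr19:42090773-42091405, was common to both sides: both WT libraries, all 4 SETD2KO libraries and SETD2KO-1R replicate 1. Its percentiles were 51.9 and 55.2 in WT, 86.6 and 74.9 in SETD2KO-1, 91.4 and 62.9 in SETD2KO-2, and 73.0 in SETD2KO-1R replicate 1. The contrast chose the gene and the lists differ in length, so these percentiles are given as a description. Each SETD2KO library ranked this site higher than either WT library did. SETD2KO-1R replicate 1 lay among the SETD2KO values, and SETD2KO-1R replicate 2 had no peak there. The 5 regions nearest the 3′ end had midpoints 1220.5 to 4978.5 bp from it, and 3 further SETD2KO regions, chr19:42087150-42087512, chr19:42087780-42088333 and chr19:42088562-42089160, were among them. The other 5 regions were each called in 1 SETD2KO-1 library, with midpoints 10372 to 52464.5 bp from the 3′ end and percentiles of 11.01 to 52.8.

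The 786-O region of POU2F2 was elsewhere. All 5 peaks of 786-O fell in chr19:42196403-42196875, which ends 1061 bp from the upstream end of the gene body. Their summits lay within 75 bp of each other, and percentiles ran from 19.2 to 52.4. The promoter window of POU2F2, chr19:42132397-42132696, lies further inside the gene body. Whether transcripts start near the upstream end was not tested. No POU2F2 region was shared by the 2 cell lines, nor was any MAL region, while MAL2 and MALL each shared 2.

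Between the cell lines, the 8 libraries of 786-O were compared with the 8 of RPTEC. The choice of MAL, MAL2 and POU2F2 required peaks in 1 particular cell line, so their differences are given as a description, with no test. The difference, 786-O minus RPTEC, was -2.75 peaks for MAL and -2.125 for POU2F2. It was 0.625 for MAL2, and 0.25 without 786-O SETD2KO-1 replicate 1. For MALL, means were 1.125 ± 0.991 and 2.25 ± 0.463 peaks (SD, n = 8 each), a difference of -1.125 (exact two-sided permutation p = 0.0326; adjusted p = 0.209). The 8 libraries are pairs from 4 lines, and with the mean of each line as the unit the MALL difference had an exact two-sided permutation p of 0.0857 (adjusted p = 0.470). It did not pass the adjustment over 13420 genes, while 3.44% of these genes passed it as higher in 786-O and 1.92% as higher in RPTEC. In bases covered, with libraries as the unit, the MALL difference was -834 bp and did pass (exact two-sided permutation p = 0.000311; adjusted p = 0.00844). Cell line and library preparation cannot be told apart.

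Relatives of the MAL proteins were counted next. Of 23 further genes of the MARVEL family, whose proteins share the membrane domain of MAL, 11 had a peak in 786-O and 15 in RPTEC. MARVELD2 (tricellulin), a protein of tight junctions where 3 cells meet, was the only one with its groups apart, 1 of 15 in RPTEC and 0 of 11 in 786-O. Beside the 1.41% and 1.01% of all genes in RPTEC, and 1.52% and 0.901% in 786-O, such small counts show nothing particular to the family. In RPTEC it had 1 peak in each SETD2-expressing library and 0 in each SETD2KO library (exact two-sided permutation p = 0.0286; adjusted p = 1), and in 786-O 0 or 1 on either side. OCLN (occludin), its relative in the tight junction, had 0 or 1 peaks in the SETD2KO and 0 to 2 in the SETD2-expressing libraries of RPTEC. The median difference of the list was 0 in 786-O and -0.25 in RPTEC, the same as over all genes with a peak. MYADM had 1 to 5 peaks in every library.

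Of 22 genes of apical transport and lipid rafts, 18 had a peak in 786-O and 17 in RPTEC, and none had its groups apart in either, which is close to the shares of all genes just given. Their median difference was -0.25 in both cell lines, beside 0 in 786-O and -0.25 in RPTEC over all genes. STX3, the apical membrane syntaxin, had 4 to 6 peaks in SETD2KO and 1 to 4 in SETD2-expressing libraries of 786-O (exact two-sided permutation p = 0.0857; adjusted p = 1). TPD52, a partner of MAL2, differed between the cell lines: 3.375 ± 1.60 peaks in 786-O and 0.5 ± 0.535 in RPTEC (SD, n = 8 each; exact two-sided permutation p = 0.000777; adjusted p = 0.0252). In RPTEC its SETD2KO and SETD2-expressing libraries both had a mean of 0.5. TPD52 was the only 1 of the 18 list genes with a peak to pass the adjustment between the cell lines. Over all genes, 3.44% passed it as higher in 786-O and 1.92% as higher in RPTEC. The 8 libraries of each cell line are pairs from 4 lines. No test with the line mean as the unit is given for TPD52.

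Of 19 POU factors and their partners, 7 had a peak in each cell line and none had its groups apart, also close to those shares. POU2F1 (OCT1), the close relative of POU2F2, had 2 to 5 peaks in SETD2KO and 1 to 4 in SETD2-expressing libraries of RPTEC. POU2F3 and the lymphoid coactivator POU2AF1 had no peak in any library of either cell line. The median difference was 0.25 in RPTEC, where that of all genes was -0.25, and 0 in 786-O, where that of all genes was 0.

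The genes whose covered bases followed each gene most closely over the 8 libraries of a cell line were also found, as a description. The points share the libraries and their depth, and each r is the highest among all genes compared by construction. For MAL in RPTEC, of 11177 genes, these were CCDC14 (r = 0.981), with 3 to 5 peaks on both sides, ZNF90 (r = 0.970), with 0 or 1 in SETD2KO and 1 to 3 in SETD2-expressing libraries, and SLC35G1 (r = 0.968), with 0 and 1. For MAL2 in 786-O, of 11595 genes, they were CIMAP1D (r = 0.981) and FAM131A (r = 0.973), each with 1 or 2 peaks in SETD2KO and 0 in other libraries, and DNAH7 (r = 0.968), an axonemal dynein with 3 to 7 against 0 to 2. For POU2F2 in RPTEC they were SLC35F3 (r = 0.983), with 10 to 27 peaks in SETD2KO and 7 to 12 in other libraries, TCHH (r = 0.978), with 0 to 3 and 0, and the transcription factor MAF (r = 0.978), with 2 to 5 and 0. For MALL in RPTEC they were GLB1L (r = 0.959), ATP8B2 (r = 0.950) and KIF22 (r = 0.949), each with 0 in SETD2KO and 0 to 2 in SETD2-expressing libraries. None of the 12 genes lies on the same chromosome as its counterpart except GLB1L.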

How the data were processed

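Per the methods and the submitters' processing notes, alignment to hg38 was done with STAR and counting with HTSeq. Libraries were scaled to an E. coli spike-in, and MACS2 called peaks for each library from IP over Input. The lists deposited by the authors give each peak's start, end, summit and a score of unstated scale, used here only as a rank within its list. The fold enrichment and p columns hold 0 throughout. Reads per peak are not in these lists, so depth is unknown and no count model was run. Peaks on chromosomes 1 to 22, X and Y were assigned to RefSeq (GRCh38.p14) gene bodies at an overlap of at least 1 bp (1171 peaks lay elsewhere). Overlapping peaks were merged into regions, and peaks that only touch were kept apart. Groups were compared with exact two-sided permutation tests of the mean peak number (70 arrangements for 4 against 4, 12870 for 8 against 8), with Benjamini-Hochberg adjustment over all genes with a peak, in Python 3.11.15 and NumPy 2.4.6. The scripts were tested on simulated data. Libraries shared at most 0.0309% of peaks with identical bounds. Same-numbered replicates did not deviate together (r from -0.191 to 0.375 in 786-O and -0.353 to 0.325 in RPTEC), so they were not paired. The 4 genes and all gene lists were chosen with earlier results of these data known. Named genes were the 4 genes, list genes whose groups did not overlap, the 3 genes most like each in covered bases, and genes overlapping their regions. Other named list genes (OCLN, MYADM, STX3, TPD52, POU2F1, POU2F3, POU2AF1) and the neighbours were chosen after their values were seen. No genome, exon or protein table was used here.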

Additional observations from a re-analysis of the deposited data

Results flagged for a closer look

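In 5 groups of 4 libraries, 1 library stood outside the spread of the other 3. These are small whole numbers in which the other 3 libraries are tied. The rule is set to mark about 1 group in 20 by chance, but only for values without ties. With 3 tied libraries it marks any library that differs, so no excess is read from the 5 groups. MALL had 0 peaks in 786-O SETD2KO-1 replicate 1, against 2 in each of the other SETD2KO libraries of 786-O. It had 3 peaks in RPTEC SETD2KO-1 replicate 2 and 3 in RPTEC SETD2KO-1R replicate 1, against 2 in each other library of the same side. POU2F2 had 0 peaks in 786-O WT replicate 1 and 0 in RPTEC SETD2KO-1R replicate 2, against 1 in each other SETD2-expressing library of the same cell line.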

How the results depend on the processing

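Of 368 recomputed values, 343 did not change sign and kept their side of the threshold, or stayed within the spread or 1.5 times. Moves from or to 0 were counted as no change of sign, such as MALL in RPTEC from 0 to -1 with the upper 50% of each list. No gene passed the adjustment between SETD2KO and SETD2-expressing libraries, and MAL had no peak in 786-O. Many of the 343 could therefore hardly change, and the count does not measure robustness. Differences are SETD2KO minus SETD2-expressing unless named; the cause of each shift was not tested. With the upper 50% of each list, MAL2 in 786-O went from 2.75 to 0.25 peaks, POU2F2 in RPTEC from 4 to 2.5, the regions of the 4 genes from 8 to 3 in 786-O and 24 to 15 in RPTEC, and the MARVEL genes with groups apart in RPTEC from 1 to 0. With every list cut to its 19249 highest peaks, MAL2 in 786-O was 1.25, and MALL passed between the cell lines at -1.625 (exact permutation, adjusted p = 0.0303). MALL also passed in covered bases (-834 bp) and per 10000 peaks (-0.524; exact permutation, adjusted p = 0.0104). In covered bases 1 apical transport gene had its groups apart in 786-O, against 0. MAL2 in 786-O was 3.5 with SETD2KO-1 alone and 2 with SETD2KO-2 alone. POU2F2 in 786-O turned to 0.25 with SETD2KO-1 alone, and MAL2 between the cell lines turned to -2.5 with WT lines alone. With peaks of at least 288 bp, chosen after seeing the data, MAL2 in 786-O was 2, MAL in RPTEC -3, and RPTEC regions called throughout 1 side went from 2 to 1.

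Leaving out each library in turn gave 2.33 to 3 for MAL2 in 786-O, -4.58 to -3.58 for MAL and 3.25 to 4.92 for POU2F2 in RPTEC. Regions called throughout 1 side numbered 0 to 2 in 786-O, with 2 when the first replicate of SETD2KO-2 was left out, and 2 to 4 in RPTEC (4 without SETD2KO-1R replicate 2). MARVEL genes with groups apart in RPTEC numbered 1 to 2 (2 without SETD2KO-2 replicate 2). Apical transport genes numbered 0 to 1 in 786-O (1 without SETD2KO-1R replicate 2) and 0 to 1 in RPTEC (1 without SETD2KO-1R replicate 1). MAL between the cell lines, a description since its RPTEC peaks chose it, was -3.14 to -2.29. With the replicate number as a block no call changed: MAL2 in RPTEC had p = 0.167 (exact permutation) at -1.5, and MALL between the cell lines at -1.125 had adjusted p = 0.244 (range 0.00844 to 0.470 over its other settings with a test, leaving out no library). Depth limits the calls by an amount that the lists do not give.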
